A study of Homo sapiens with 6 samples.

Results

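Histone lysine demethylases remove methyl groups from lysines of histone tails, and 10 of their genes are described here: Kdm1a, Kdm2a, Kdm2b, Kdm3a, Kdm3b, Kdm4a, Kdm4b, Kdm4c, Kdm5b and Kdm6b. They were found by their symbols in a table of RNA-seq read counts, where they are 10 of 22989 genes. All 10 passed the filter on low counts, which 13497 genes passed. The table holds 3 libraries labelled LINC00115 KD and 3 labelled WT, all from MDA-MB-231 PTX-resistant BCSC. The parental line came from a human breast tumour without hormone receptors or HER2 amplification, PTX is paclitaxel, a drug that stabilises microtubules, and BCSC are breast cancer stem cells, which the study sorted by high aldehyde dehydrogenase activity. The comparison asks which genes depend on LINC00115, a long non-coding RNA.

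Both groups carry the paclitaxel resistance and the sort, and the labelled difference is the knockdown alone. The study's methods describe 2 shRNAs and an shRNA control, while the labels call the control libraries WT and number the KD libraries 1 to 3. The study names its second shRNA, sh115-2, for the KD cells of its RNA-seq comparison, while the labels describe the 3 KD libraries as sh115-1, sh115-2 and sh115-3, so which shRNA each library carries remains unclear. Whether the libraries came from separate cultures is not given in the sources used here. The p-values therefore measure the spread between these libraries, which may be technical. LINC00115 is listed in the table under 0 symbols, so the knockdown could not be checked and every direction below rests on the labels. The symbols are written in mouse style, and only 16 of the 22989 equal a human symbol as written. The labels name Homo sapiens and the human build hg38, and the study's methods name the human build hg19. The mouse-style symbols conflict with these, so which organism's gene models the reads were counted on remains unclear.

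Library totals lay between 36979221 and 38799331 counts. The line's mesenchymal markers Vim, Cd44, Axl, Msn and Cav1 were present, with a summed level of 6078 to 6159 CPM in WT and 6554 to 6689 CPM in KD, where CPM stands for counts divided by TMM-scaled library totals and multiplied by 1e6. The epithelial and receptor markers listed as absent or low in the line were Cdh1, Epcam, Esr1, Pgr, Erbb2 and Krt8. They summed to 486 to 498 CPM in WT and 757 to 797 CPM in KD. Krt8 made up nearly all of it (means of 472 CPM in WT and 752 CPM in KD) and was thus not low. Of the 6 markers, 4 passed the filter and all 4 were higher in KD. The sort's aldehyde dehydrogenases Aldh1a1 and Aldh1a3 were close to absent, with a summed level of 0.212 to 0.450 CPM in WT and 1.06 to 1.34 CPM in KD. Markers of other tissues moved with the groups. The summed level of 10 lung markers was 1.59 to 1.98 CPM in WT and 74.5 to 86.2 CPM in KD, with 10 of 10 higher in every KD library and 6 of them (Scgb1a1, Scgb3a2, Sftpa1, Sftpb, Sftpc and Sftpd) at 0 counts in all WT libraries. Kidney markers summed to 9.24 to 9.64 CPM in WT and 24.4 to 28.6 CPM in KD. In 7 of 10 every KD library lay above every WT library, with Kap, Umod, Slc22a6 and Cdh16 among the markers at 0 in WT. In 1 kidney marker, Cubn, every KD library lay below every WT library, with means of 8.28 CPM in WT and 6.07 CPM in KD. Cubn made up most of the WT sum. Leukocyte markers summed to 34.9 to 35.8 CPM in WT and 99.7 to 111 CPM in KD. Nearly all of this was S100a8, with a mean of 33.0 CPM in WT and 95.2 CPM in KD. In 4 of the 10 every KD library lay above every WT library, and in 1 every KD library lay below. Ptprc did not pass the filter (mean 0.194 CPM in WT and 0.255 CPM in KD), and the T cell marker Cd3e was at 0 in every library. The part of these lung, kidney and leukocyte markers in the changes below was not tested. In bulk RNA, fewer cells of a type and less RNA per cell cannot be told apart.

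The demethylases fall into 2 chemical classes. Kdm1a, also called LSD1, is a flavin-dependent amine oxidase, while the others carry a JmjC domain that needs iron, oxygen and 2-oxoglutarate. Because oxygen is a substrate, the JmjC enzymes are studied as a link between oxygen supply and chromatin. Kdm3a and Kdm4b are also known target genes of HIF1, the hypoxia-inducible transcription factor, which binds the core letters ACGTG or GCGTG. In breast cancer, Kdm5b was first described as a gene highly expressed in tumours, and Kdm4c lies in a region amplified in some basal tumours.

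To show what stands before these genes, the 250 bases before the start of each human counterpart were read from RefSeq (GRCh38.p14). All 10 symbols matched when case was ignored, with 16 start windows among them. They are human sequences, set beside counts whose gene models carry mouse-style symbols. The windows of the genes with the 3 largest falls and of Kdm4c, the gene whose test was not passed, are shown, with matches to ACGTG or GCGTG on either strand in capitals (the reverse strand reads CACGT or CACGC). Of several start windows of KDM3A, the first listed is shown. They lie at chr1:202808422-202808671 (minus strand, KDM5B), chr19:4968863-4969112 (plus strand, KDM4B), chr2:86441121-86441370 (plus strand, KDM3A) and chr9:6757723-6757972 (plus strand, KDM4C), and each is written 5′ to 3′ on its gene's strand.
KDM5B: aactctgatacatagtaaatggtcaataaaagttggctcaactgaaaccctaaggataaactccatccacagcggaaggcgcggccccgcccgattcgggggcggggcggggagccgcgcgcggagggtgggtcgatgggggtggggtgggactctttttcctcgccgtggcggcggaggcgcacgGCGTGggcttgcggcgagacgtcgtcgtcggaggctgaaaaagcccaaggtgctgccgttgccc
KDM4B: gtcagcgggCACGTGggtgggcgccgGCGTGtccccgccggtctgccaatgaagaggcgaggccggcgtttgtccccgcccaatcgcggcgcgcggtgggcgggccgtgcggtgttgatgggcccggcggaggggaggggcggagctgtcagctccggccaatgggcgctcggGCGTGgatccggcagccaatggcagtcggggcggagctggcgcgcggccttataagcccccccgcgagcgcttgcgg
KDM3A: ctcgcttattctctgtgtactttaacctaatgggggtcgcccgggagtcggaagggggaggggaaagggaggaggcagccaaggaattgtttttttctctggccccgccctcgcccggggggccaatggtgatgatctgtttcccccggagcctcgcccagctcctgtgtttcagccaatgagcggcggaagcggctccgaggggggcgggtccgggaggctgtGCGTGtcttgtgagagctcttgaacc
KDM4C: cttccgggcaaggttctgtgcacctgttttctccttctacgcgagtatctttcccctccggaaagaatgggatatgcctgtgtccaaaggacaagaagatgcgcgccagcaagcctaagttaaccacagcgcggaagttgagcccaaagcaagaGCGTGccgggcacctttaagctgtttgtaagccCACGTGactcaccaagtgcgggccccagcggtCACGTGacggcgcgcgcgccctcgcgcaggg
The windows of KDM5B and KDM3A hold 0 matches to ACGTG and 1 to GCGTG each. That of KDM4B holds 2 matches to ACGTG, which are the 2 strands of one CACGTG, and 2 to GCGTG. The window of KDM4C, whose counterpart in the table did not pass the test, holds 4 matches to ACGTG, from a pair of CACGTG, and 1 to GCGTG. Among all 16 windows, 3 (18.75%) held ACGTG and 12 (75%) held GCGTG. The windows are not independent, since the 2 of KDM3A overlap and hold the same GCGTG and 4 belong to KDM2B. By gene, 3 of 10 had ACGTG and 9 of 10 had GCGTG in at least 1 window. Of 35116 human RefSeq windows of the same length, 18.5% held ACGTG, 32.2% held GCGTG and 43.2% held either. The windows of the 10 genes have a GC content of 50.4% to 83.6%, which was not matched in this comparison. A match describes letters and not a bound site.

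Transcripts of 9 of the 10 demethylases were lower in KD than in WT (edgeR's quasi-likelihood test, adjusted p under 0.05 over all genes tested) and 0 were higher, also at an unadjusted p under 0.05 and by DESeq2. Over all genes tested, 36.7% were lower and 36.7% were higher by the same rule. A fall of more than 2-fold, the study's threshold, was met by 4 genes (Kdm5b, Kdm4b, Kdm3a and Kdm6b), against 9.98% of all genes tested. In 9 genes every KD library lay below every WT library, which held for 37.8% of all genes. The median log2 fold change of the 10 genes was −0.58, beside −0.0061 over all genes tested.

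**Figure D1:**
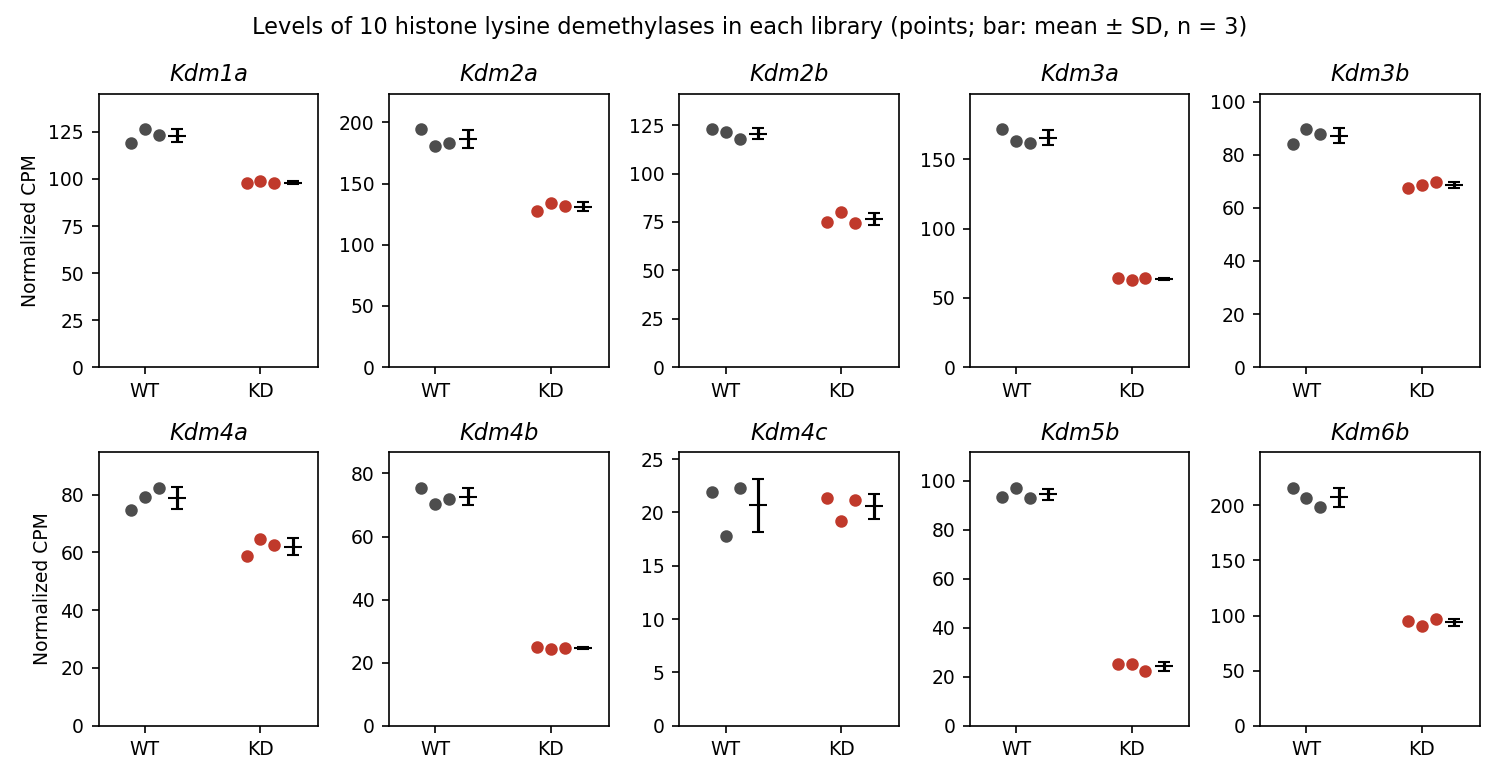
Normalized CPM (vertical axes, from 0, a scale for each gene) of the 10 demethylase genes in the WT and KD libraries, 1 point a library, with bars at the mean ± SD (n = 3). The groups lie apart in 9 genes and overlap in Kdm4c.

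The 2 erasers of H3K4 methylation were both lower in KD. Kdm5b, which removes the di- and trimethyl marks found at active promoters, had the largest fall of the 10 genes. Its level was 93.6, 97.2 and 92.9 CPM in WT and 25.3, 25.03 and 22.1 CPM in KD. The 3 KD libraries sat close together, far below any WT library. The mean went from 94.5 ± 2.31 to 24.2 ± 1.76 CPM (SD, n = 3 each), which left 25.6% of the WT level (log2 fold change −1.97, SE 0.0573, adjusted p = 1.01e-25 by edgeR). Of all genes tested, 3.04% had a log2 fold change this low or lower. Kdm1a, the flavin enzyme that acts on the mono- and dimethyl marks, was at 119, 126 and 123 CPM in WT and 97.7, 99.0 and 97.6 CPM in KD. These groups were also apart, with a small gap. Kdm1a kept 79.7% of its WT level (123 ± 3.58 to 98.1 ± 0.749 CPM, log2 fold change −0.33, SE 0.0418, adjusted p = 1.53e-08 by edgeR).

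Of the 5 erasers of H3K9 methylation, 4 fell. Kdm3a, which removes the mono- and dimethyl marks, was at 171.7, 163.0 and 162.1 CPM in WT. In KD it was at 64.1, 63.1 and 64.1 CPM, so the KD libraries differed from each other by about 1 CPM. It kept 38.5% of the WT level (165.6 ± 5.31 to 63.7 ± 0.595 CPM, log2 fold change −1.38, SE 0.0427, adjusted p = 6.21e-25 by edgeR). Its paralog Kdm3b, with the same substrate, was at 84.2, 89.6 and 87.9 CPM in WT and 67.6, 68.7 and 69.9 CPM in KD. Kdm3b was lower in every KD library and kept 78.8% (87.3 ± 2.79 to 68.7 ± 1.11 CPM, log2 fold change −0.34, SE 0.0468, adjusted p = 5.38e-08).

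The Kdm4 enzymes remove H3K9 trimethylation and can also act on H3K36 trimethylation. Kdm4b was at 75.5, 70.3 and 72.0 CPM in WT and at 25.1, 24.3 and 24.6 CPM in KD. It fell to 34.0% of WT (72.6 ± 2.65 to 24.7 ± 0.392 CPM, log2 fold change −1.56, SE 0.0577, adjusted p = 1.23e-22 by edgeR), the second largest fall of the 10 genes. Kdm4a was at 74.7, 79.3 and 82.4 CPM in WT and 58.8, 64.7 and 62.6 CPM in KD. All KD libraries were below WT, and 78.7% of the level remained (78.8 ± 3.86 to 62.0 ± 3.00 CPM, log2 fold change −0.35, SE 0.0513, adjusted p = 2.83e-07). Kdm4c did not pass the test. Its level was 21.9, 17.7 and 22.3 CPM in WT and 21.4, 19.2 and 21.1 CPM in KD, with the KD libraries inside the WT range. The means were 20.6 ± 2.52 and 20.6 ± 1.20 CPM (log2 fold change −0.0056, SE 0.0879, adjusted p = 0.956 by edgeR), and the 95% interval of the KD level ran from 88.0% to 113% of WT. The sign of its fold change turned with DESeq2's size factors, in DESeq2 and with some single libraries left out, and kept with upper quartile and library-total scaling, so no direction is given. The raw counts of Kdm4c were 824, 670 and 843 in WT and 826, 704 and 803 in KD, which sets the counting precision of these levels.

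Kdm6b, also called JMJD3, removes H3K27 di- and trimethylation, the mark laid by Polycomb repressive complex 2, and is known as an inducible gene in inflammation. It was at 216, 207 and 199 CPM in WT and 94.8, 90.4 and 96.8 CPM in KD. Every KD library was under 100 CPM and every WT library far above it. The level fell to 45.3% of WT (207 ± 8.72 to 94.0 ± 3.28 CPM, log2 fold change −1.14, SE 0.0413, adjusted p = 6.08e-23 by edgeR). Of all genes tested, 8.77% had a log2 fold change this low or lower.

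Kdm2a and Kdm2b remove mono- and dimethylation of H3K36 and bind unmethylated CpG-rich DNA through a zinc finger. Kdm2b was at 123, 121 and 118 CPM in WT and at 75.0, 80.0 and 74.3 CPM in KD. It kept 63.3% of its level (121 ± 2.71 to 76.4 ± 3.09 CPM, log2 fold change −0.66, SE 0.0445, adjusted p = 2.89e-15 by edgeR). Kdm2a was at 194, 181 and 183 CPM in WT and 128, 134 and 132 CPM in KD. It kept 70.5% (186 ± 7.29 to 131 ± 3.35 CPM, log2 fold change −0.50, SE 0.0395, adjusted p = 1.43e-13). In both genes the groups were apart.

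The falls thus ranged from the log2 fold changes of −1.97 in Kdm5b, −1.56 in Kdm4b, −1.38 in Kdm3a and −1.14 in Kdm6b to values between −0.66 and −0.33 in Kdm2b, Kdm2a, Kdm4a, Kdm3b and Kdm1a. In a test against a fold change of 1.5, the first 4 passed and the other 5 did not. Within the last 5, Kdm4a, Kdm3b and Kdm1a differed from each other in log2 fold change by less than the SE of any of them.

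Because paralogs share a fold and substrates, their balance was measured as the log2 ratio of 2 genes' counts within a library (pseudocount 0.5), which does not depend on how libraries are scaled. Only its difference between groups is read, since lengths of the gene models are not at hand. For Kdm4b over Kdm4c the ratio was 1.79, 1.99 and 1.69 in WT and 0.23, 0.34 and 0.22 in KD, a difference of −1.55 (SE 0.0953). For Kdm3a over Kdm3b it was 1.03, 0.86 and 0.88 in WT and −0.08, −0.12 and −0.12 in KD, a difference of −1.03 (SE 0.0546). Kdm4a over Kdm4b differed the opposite way, with means of 0.12 in WT and 1.33 in KD (difference 1.21, SE 0.0856), with Kdm4b the gene of the larger change. Kdm5a over Kdm5b differed by 1.04 (SE 0.0669), Kdm4a over Kdm4c by −0.35 (SE 0.143) and Kdm2a over Kdm2b by 0.155 (SE 0.0361).

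In all 6 pairs the groups of 3 libraries did not overlap. Each had a p of 0.1 by a two-sided exact permutation test (0.1 after adjustment over the 6 pairs), which is the smallest p that 3 libraries against 3 allow, so no pair could pass 0.05. The share of all gene pairs without overlap was not counted. Among single genes, every KD library lay below every WT library in 37.8% of those tested. The ratios among Kdm4a, Kdm4b and Kdm4c are not independent, since each follows from the others. The difference for Kdm4b over Kdm4c stayed between −1.62 and −1.47 with each library left out in turn, and that for Kdm4a over Kdm4c between −0.43 and −0.24. Near-identical stretches of paralogs could share reads, and how the authors' counting treated such reads is not given in the sources used here.

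The family beyond the 10 genes was read from a list of 15 other demethylases and JmjC relatives. All 15 passed the filter, 11 were lower and 4 higher, and the list's median log2 fold change was −0.33. More than 2-fold lower were Kdm4d (−1.58, SE 0.580, adjusted p = 0.0153), a Kdm4 paralog, and Jarid2 (−1.36, SE 0.0947), a JmjC protein without demethylase activity that joins Polycomb repressive complex 2. Kdm4d rested on counts of 38, 23 and 11 in WT and 10, 5 and 9 in KD, and it did not pass without WT replicate 1 (−1.08) or without KD replicate 2 (−1.34). Kdm5a, the closest paralog of Kdm5b in the list, fell from 147 ± 5.80 to 77.3 ± 0.478 CPM (log2 fold change −0.93, SE 0.0428, adjusted p = 7.33e-20 by edgeR). Kdm6a, which shares its substrate with Kdm6b, fell by 0.51 on the log2 scale, and Kdm1b, the paralog of Kdm1a, by 0.31.

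Other falls on the log2 scale were those of Jmjd6 (−0.65), Phf8 (−0.49), Kdm5c (−0.42), Kdm7a (−0.33), Hr (−0.27) and Jmjd1c (−0.16). Higher in KD were Kdm8 (1.92), Riox1 (1.82) and Riox2 (1.36), JmjC proteins known mainly as hydroxylases of other proteins, and Phf2 (0.68), an eraser of H3K9 dimethylation. The 3 genes that rose more than 2-fold had WT means of 2.43 CPM for Kdm8, 8.55 CPM for Riox1 and 8.08 CPM for Riox2.

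**Figure D2:**
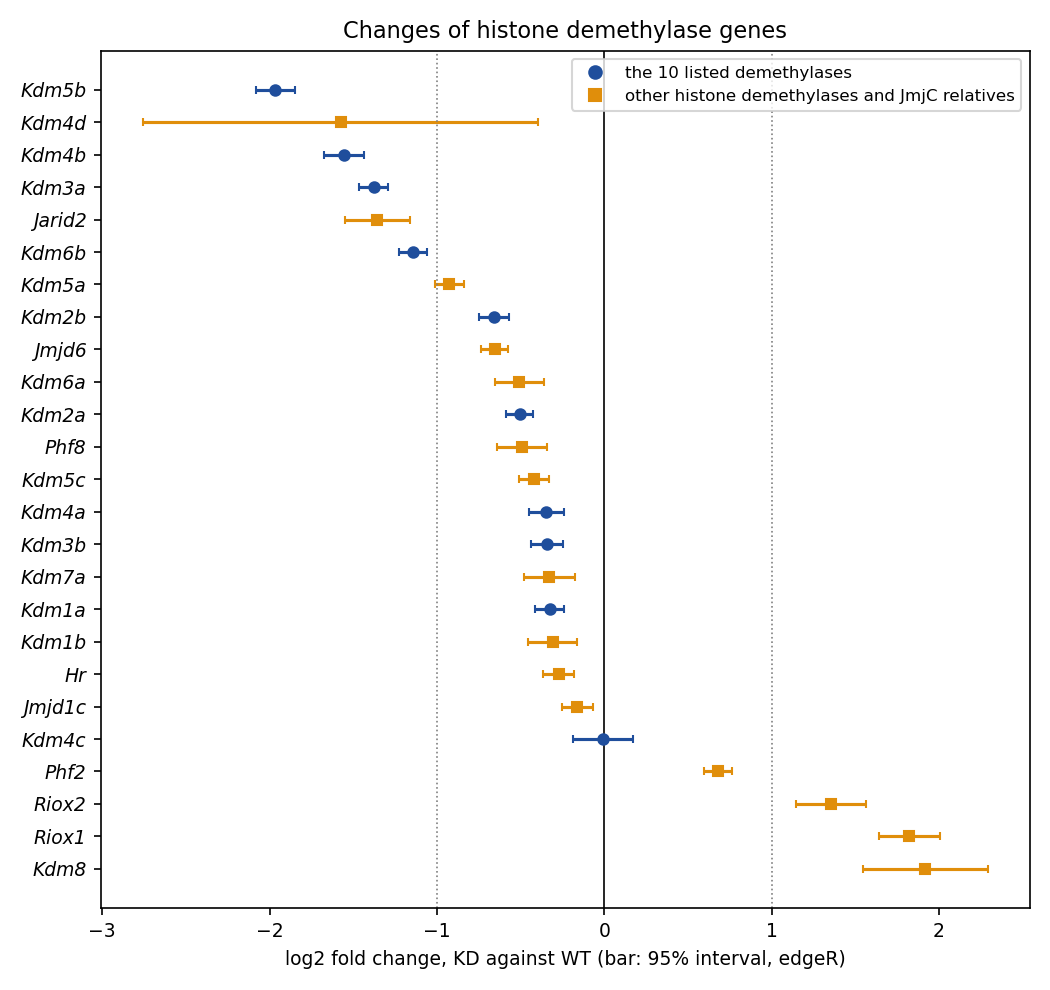
Log2 fold change of KD against WT (points, with 95% intervals from edgeR as bars) for the 10 listed demethylases and 15 other demethylases and JmjC relatives, ordered by value, with dotted lines at a 2-fold change. The listed genes run from −1.97 for Kdm5b to −0.0056 for Kdm4c, and the points above 0 are Phf2, Riox2, Riox1 and Kdm8.

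Kdm1a works with the CoREST complex, in which scaffold proteins bring it to nucleosomes beside the histone deacetylases Hdac1 and Hdac2. Of 9 CoREST genes, 7 were lower and 2, Rcor3 (0.34) and Hmg20b (0.22), were higher. The scaffold Rcor1 changed by −0.26 on the log2 scale (SE 0.0456) beside −0.33 for Kdm1a, and Hdac1 by −0.69 (SE 0.0446). Larger were the falls of the second scaffold Rcor2 (94.9 ± 1.60 to 39.7 ± 0.737 CPM, log2 fold change −1.26, SE 0.0497) and of Phf21a, the subunit that reads unmethylated H3K4 (76.0 ± 5.14 to 14.4 ± 1.26 CPM, −2.40, SE 0.0689).

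Kdm2b brings the Polycomb complex PRC1.1 to CpG islands. Among its 9 partners 3 were lower and 4 higher (3 and 3 by DESeq2), with a median log2 fold change of −0.022. Pcgf1, the subunit that defines PRC1.1, did not pass the test (−0.022, SE 0.177, adjusted p = 0.915 by edgeR), nor did the corepressor Bcor (−0.10, SE 0.0630, adjusted p = 0.140). The 4 that rose were Ring1, Rybp, Yaf2 and Usp7 (0.16 to 0.79). Rnf2, a catalytic subunit, fell by 0.48 and Skp1 by 0.49 on the log2 scale. Bcorl1, the paralog of Bcor, fell from 54.0 ± 0.752 to 12.5 ± 1.46 CPM (−2.11, SE 0.0747).

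Methyltransferases, the writers that oppose these erasers, were counted by site. Of 11 genes for H3K4, 4 were lower (Kmt2a, Setd1a, Setd7 and Dpy30) and 4 higher (Kmt2c, Kmt2d, Setd1b and Wdr5), with a median log2 fold change of 0.0032, and DESeq2 gave 3 lower and 4 higher. Of 6 writers for H3K9, 3 were lower and 0 higher by edgeR and by DESeq2, with 4 and 0 at an unadjusted p under 0.05 (median −0.18). Setdb1, an H3K9 methyltransferase of the axis that the study examines, fell by 0.22 on the log2 scale (105.7 ± 0.789 to 90.6 ± 2.63 CPM, SE 0.0432, adjusted p = 2.46e-05 by edgeR), and the other 2 that fell were Suv39h1 (−0.34) and Ehmt2 (−0.63). Of 4 genes for H3K27, 2 were lower (Ezh1, −0.41, and Ezh2, −0.16) and 0 higher by edgeR, by DESeq2 and at an unadjusted p under 0.05 (median −0.086), and without WT replicate 3 or without KD replicate 1 the count that was lower was 1. Of 5 writers for H3K36, 0 were lower by the same 3 readings and 4 were higher (median 0.32), with Nsd2 (0.41), Ash1l (0.32) and Setd2 (0.097) under 2-fold. Nsd1 was the one above it (22.0 ± 2.43 to 45.9 ± 3.67 CPM, log2 fold change 1.06, SE 0.0755), although without WT replicate 1 its change was 0.98. The median for each of these 4 writer lists was thus between −0.18 and 0.32, while the median of the 10 listed erasers was −0.58. That of the 15 other demethylases and JmjC relatives was −0.33, with 11 lower and 4 higher.

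Since Kdm3a and Kdm4b are known HIF1 targets, 12 other HIF1 target genes were set beside them. All 12 were lower and 10 fell more than 2-fold, with a median log2 fold change of −1.76. The values of −1.38 for Kdm3a and −1.56 for Kdm4b lay inside the range of the 12, from −2.82 for Aldoc to −0.78 for Pgk1. The values of Kdm5b (−1.97) and Kdm6b (−1.14), not named as HIF1 targets above, lay inside it too. The range therefore does not set Kdm3a and Kdm4b apart. Of the 12, those past 2-fold and nearest to Kdm3a and Kdm4b were Slc2a1 (−1.32), Ndrg1 (−1.45) and P4ha1 (−1.46). Slc2a1 is the glucose transporter and P4ha1 a collagen prolyl hydroxylase subunit. The others were Vegfa (−1.74), Adm (−1.77), Pdk1 (−1.92), Bnip3 (−2.12), Car9 (−2.55), Ankrd37 (−2.70) and Aldoc. Hif1a, the oxygen-regulated subunit itself, was higher in KD (254 ± 5.94 to 334 ± 1.68 CPM, log2 fold change 0.40, SE 0.0335, adjusted p = 1.11e-12 by edgeR). These genes share the libraries with the demethylases, and no relation between them was tested.

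**Figure D3:**
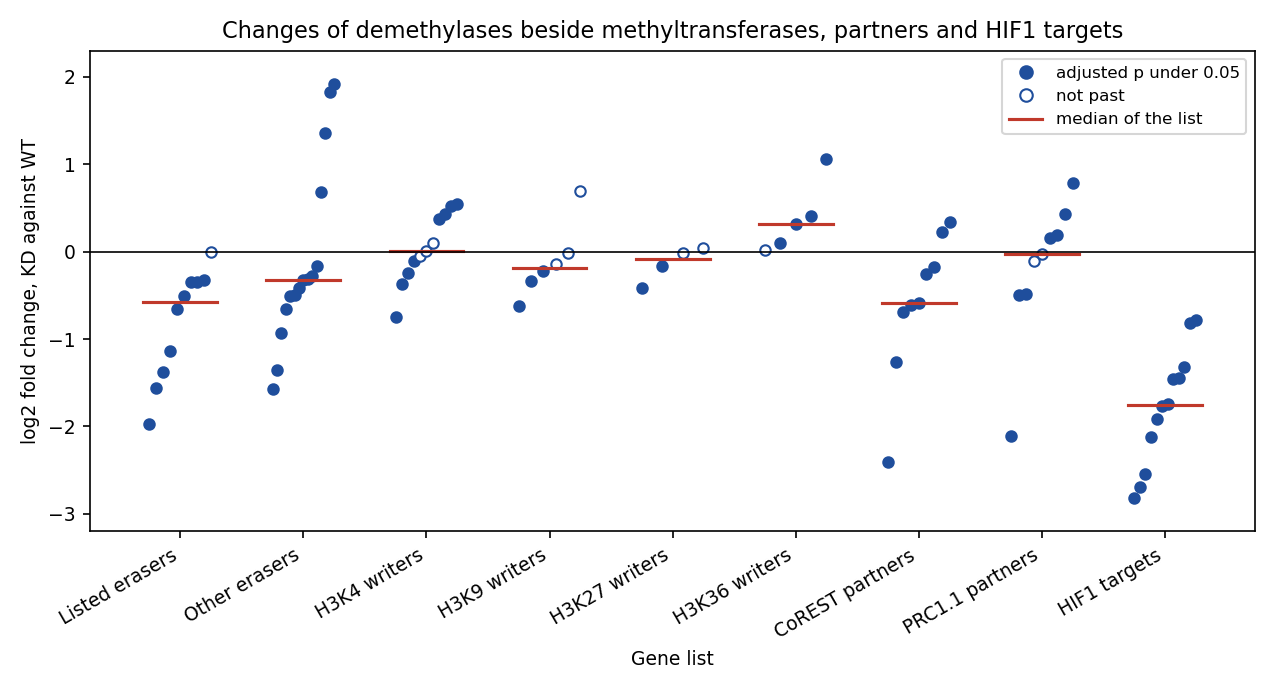
Log2 fold change of KD against WT (vertical axis) for the genes of each list, with filled points for genes past the test (edgeR, adjusted p under 0.05), open points for the others and a red line at the list's median. The median was −0.58 for the 10 listed demethylases, −0.33 for the 15 other demethylases and JmjC relatives and −1.76 for the 12 HIF1 targets. Those of the 4 writer lists lie between −0.18 and 0.32.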

How the data were processed

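The authors deposited 1 table of whole-number read counts for 6 libraries, without normalization. Per the labels' processing notes, HISAT2, featureCounts and DESeq2 were used with hg38, whereas the study's methods name HISAT2 and hg19. Neither annotation nor strand setting is given in the sources used here. Labels and methods also name different extraction and library kits.

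In R 4.3.3, edgeR 4.0.16 was fitted to the counts (filterByExpr with a minimum count of 10 and a minimum total of 15, TMM, quasi-likelihood test, group only) with Benjamini-Hochberg adjustment over 13497 genes. Lower or higher means an adjusted p under 0.05, and the 2-fold threshold is the study's. CPM use TMM-scaled totals. SE is the absolute log2 fold change over the root of F. Within-library ratios were tested by exact permutation with scipy 1.17.1. The steps were tested on simulated data. A count of 0 allows up to 3 counts, and intervals on it cover counting error only.

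Members and lists were chosen with earlier results of these data known. Named were all 10 members, genes past both thresholds in each list, every other demethylase tested, and Setdb1, Hif1a, Rcor1, Hdac1, Pcgf1 and Bcor. Other genes were named after their values were seen. Alternatives were scaling by DESeq2's size factors, the upper quartile or library totals, no filter, a minimum of 10 counts in all libraries, each library left out, a replicate block, DESeq2 1.42.0 and a test against a fold of 1.5. Y-linked genes were left out. Some genes counted in the lists are not reported here by name.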

Additional observations from a re-analysis of the deposited data

How the results depend on the processing

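The 9 lower demethylases stayed lower, and the 4 past 2-fold stayed past it, under 3 other scalings, 2 other filters, each library left out, a replicate block and DESeq2 (13 alternatives). Against a fold change of 1.5, 4 of the 10 were lower and 5 no longer passed, with Kdm2b nearest (adjusted p = 0.0556 by edgeR). Over all genes that test called 1730 lower and 1856 higher, against 4960 and 4952. In the same test the count of lower genes was more than 1.5 times smaller in each of the other lists that had any, except the HIF1 targets, of which 12 stayed lower. The count of higher genes went from 4 to 0 for H3K4 writers, from 4 to 1 for H3K36 writers, PRC1.1 partners and HIF subunits and sensors, from 2 to 0 for CoREST and from 5 to 1 for 2-oxoglutarate genes, and stayed at 4 for the other demethylases. Kdm4c turned in sign with DESeq2's size factors (0.0013) and in DESeq2 (0.0026), and lay between −0.102 and 0.055 with single libraries left out. Pcgf1 lay between −0.066 and 0.064 in the same way. Bcor passed with upper quartile scaling alone (−0.14). The causes were not tested.

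With the replicate number as a block, 9 of the 10 demethylases were lower, and 4906 genes were lower and 4932 higher in all. The differences of the paralog ratios are the same with the block by construction, −1.55 for Kdm4b over Kdm4c. Same-numbered libraries deviated from their group means with correlations of 0.0135, −0.0194 and −0.0202, and 2 of 6 correlated best with their own number. No pairing by number was thus seen in the counts. Whether same-numbered libraries were prepared together cannot be read from these values. With 3 libraries a group, small differences such as that of Kdm4c are limited by the spread between libraries. Pcgf1 and Kdm4d are limited by low counts.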

Other observations

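The JmjC demethylases use 2-oxoglutarate and are inhibited by succinate and fumarate. Of 15 genes that make or use 2-oxoglutarate or related metabolites, 5 were lower and 5 higher in KD (edgeR, adjusted p under 0.05), with a median log2 fold change of 0.064. The lower genes were Idh1, Idh2, Idh3g, Sdha and Sdhb, with log2 fold changes from −0.51 to −0.20, and among the higher genes were Ogdh, Glud1 and Sdhd, from 0.24 to 0.53.

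Among 8 HIF subunits and oxygen sensors, 4 were lower and 4 higher. Egln1, a prolyl hydroxylase that marks HIF subunits for destruction and also uses oxygen and 2-oxoglutarate, fell from 307 ± 6.83 to 128 ± 6.54 CPM (log2 fold change −1.25, SE 0.0389), and Vhl, which recognises the mark, from 62.9 ± 1.91 to 30.5 ± 0.804 CPM (−1.04, SE 0.0574). Epas1 had 0, 0 and 3 counts in WT and 85, 57 and 74 in KD, and Hif1an and Egln2 also rose (0.23 and 0.68). The other lower genes were Arnt (−0.21) and Egln3 (−0.64).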
